A study of Mus musculus with 12 samples.

Results

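The 3 tubulin genes Tuba4a, Tuba8 and Tubb4b are described here in mouse liver. They were taken by symbol from the authors' deposited table of high-fat diet (HFD) against chow and make up 3 of its 336 rows. The diet table holds 6 mice of the strain C57BL/6N, all of them PXR deficient, so the chow-fed controls lack the pregnane X receptor as well. From 6 weeks of age, 3 mice ate regular chow and 3 ate HFD for 18 weeks, and neither group has a treatment in the labels. A second deposited table, with 33 rows, compares 3 PXR deficient C57BL/6N mice on HFD that received PCN (pregnenolone-16alpha-carbonitrile, a rodent PXR ligand) at 50 mg/kg with 3 that received vehicle with 30% DMSO. These injections were intraperitoneal and daily, over 4 days. Sex is not in the labels, nor is the way the gene was disrupted. Each library comes from the liver of 1 mouse, and mice are named by group and number.

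Microtubules are hollow polymers of dimers of 1 alpha-tubulin and 1 beta-tubulin, and mammals carry several genes for each. The genes differ in where they are expressed and, above all, in the acidic C-terminal tail that reaches out from the microtubule surface and is modified by enzymes. In hepatocytes, microtubules carry secretory vesicles, lipoproteins and membrane proteins to the cell surface. Tuba4a and Tuba8 encode alpha-tubulins, and Tubb4b encodes a beta-tubulin of class IVB that is found in many tissues. Cells also adjust the amount of tubulin mRNA to the amount of free tubulin dimer, through recognition of the first residues of the new chain as it leaves the ribosome.

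The coding sequences show how the members differ as proteins. Complete coding sequences were found for all 3 genes in the GENCODE M21 transcripts of GRCm38. Tuba4a lies on chromosome 1 from 75214228 to 75219865 on the minus strand and has 448 codons before the stop in transcript Tuba4a-202. Tuba8 lies on chromosome 6 from 121210696 to 121226854 on the plus strand and has 449 codons. Tubb4b lies on chromosome 2 from 25222160 to 25224702 on the minus strand and has 445 codons. Codons 1 to 4, which encode the residues read in that mRNA control, are shown for the 3 members. The fourth codon separates the alpha genes from the beta gene.
Tuba4a: atgcgcgagtgc
Tuba8: atgagggaatgc
Tubb4b: atgagggagatc

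Codons 36 to 44 of the alpha genes are shown because they cover codon 40, in capitals, which in most alpha-tubulins encodes the lysine that is acetylated inside the microtubule. Tuba1b, an alpha-tubulin gene that is no row of the table, is given for comparison. Tuba4a has the same codon 40 as Tuba1b, while Tuba8 has GCC, an alanine codon. The stretches lie at chr1:75217306-75217332 on the minus strand, chr6:121220486-121220512 on the plus strand and chr15:98933067-98933093 on the minus strand.
Tuba4a: atgcccagcgatAAGaccattggtgga
Tuba8: tttggcactcagGCCagcaagatcaac
Tuba1b: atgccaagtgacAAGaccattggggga

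The last 20 codons and the stop are shown because they encode the tail, with the last codon before the stop in capitals. Most alpha-tubulin genes end in a tyrosine codon, and that tyrosine is removed and put back by enzymes. Tuba4a ends in GAG, a glutamate codon, and Tuba8 in TTT, a phenylalanine codon. Both thus lack the encoded tyrosine. The stretches are exonic and lie at chr1:75215622-75215684, chr6:121226017-121226079 and chr2:25222308-25222370, on the strands given above.
Tuba4a: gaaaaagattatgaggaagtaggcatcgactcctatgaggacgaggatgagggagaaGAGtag
Tuba8: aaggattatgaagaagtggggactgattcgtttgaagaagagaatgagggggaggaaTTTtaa
Tubb4b: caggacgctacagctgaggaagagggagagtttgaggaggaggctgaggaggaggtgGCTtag
Over the aligned coding bases Tuba4a and Tuba8 were 82.0% identical. Tubb4b was 62.1% identical to Tuba4a and 61.2% to Tuba8.

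All 3 genes were lower on HFD than on chow, and in each gene the 3 HFD mice lay below the 3 chow mice. The members differ in abundance, in the size of the difference and in how far mice of one group varied. The table holds rows that the authors' test of the same contrast had picked out. No row has a deposited log2 change smaller than 0.6 in size or an adjusted p above 0.0474. The members were thus selected on their HFD against chow values, and their diet differences are a description, and no test is given for them. Rows lower on HFD make up 0.484% of the roughly 24987 genes that the authors tested (a number worked out from their p and adjusted p) and 36.0% of the rows. In 120 rows, 35.7% of the table and 99.2% of the rows lower on HFD, the 3 HFD mice all lay below the 3 chow mice, so the members share this separation with nearly every lower row. Values are normalized counts, which are raw read counts divided by a size factor per mouse recovered from the authors' mean column (0.8286 to 1.137). Total library sizes are unknown, and counts summed over the listed genes ran from 547431 to 920106 per mouse. Scd1 alone made up 44.6% to 69.7% of these sums. Its mean normalized count was 300480 on chow and 492906 on HFD, so the sums are no measure of depth.

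Tuba4a had 1916 normalized counts in chow mouse 670, 2017 in chow mouse 695 and 1949 in chow mouse 707. On HFD it had 871 in mouse 659, 904 in mouse 669 and 874 in mouse 696. The 2 groups are far apart, with the lowest chow value 2.12 times the highest HFD value, and mice within a group are nearly level. The group means were 1961 ± 51.4 on chow and 883 ± 18.3 on HFD (SD, n = 3 each), a 2.22-fold difference. For Tuba4a the authors' deposited table lists a log2 change of -1.10, a standard error of 0.12 and an adjusted p of 2.66e-16. By that adjusted p Tuba4a ranks 1 of the 121 lower rows, but by the ratio of group means it ranks 40.

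Tubb4b had 2382 normalized counts in chow mouse 670, 1961 in chow mouse 695 and 1755 in chow mouse 707. On HFD it had 1084 in mouse 659, 1166 in mouse 669 and 938 in mouse 696. The groups do not overlap, and chow mouse 670 is the highest of the 6 mice. The means were 2033 ± 320 and 1063 ± 115 (SD, n = 3 each), 1.91-fold lower on HFD. The median over the 121 lower rows was 1.99-fold, so the difference of Tubb4b is close to that of a middling lower row. For Tubb4b the authors' deposited table lists a log2 change of -0.86, a standard error of 0.16 and an adjusted p of 2.5e-05.

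Tuba8 was the scarce member. It had 87.0 normalized counts in chow mouse 670, 38.4 in chow mouse 695 and 79.7 in chow mouse 707. On HFD it had 18.1 in mouse 659, 12.9 in mouse 669 and 10.6 in mouse 696, from 20, 12 and 12 raw reads. Chow mouse 695 lies well below the other chow mice but still above all HFD mice. The means were 68.3 ± 26.2 and 13.8 ± 3.85 (SD, n = 3 each), 4.93-fold lower on HFD, the seventh largest ratio among the 121 lower rows. Without chow mouse 695 the ratio was 6.02-fold. For Tuba8 the authors' deposited table lists a log2 change of -1.42, a standard error of 0.28 and an adjusted p of 9.26e-05. The ratio of group means is -2.30 on the log2 scale, so the deposited change is smaller in size. These are unlike measures, and the settings behind the deposited change are not given.

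**Figure D1:**
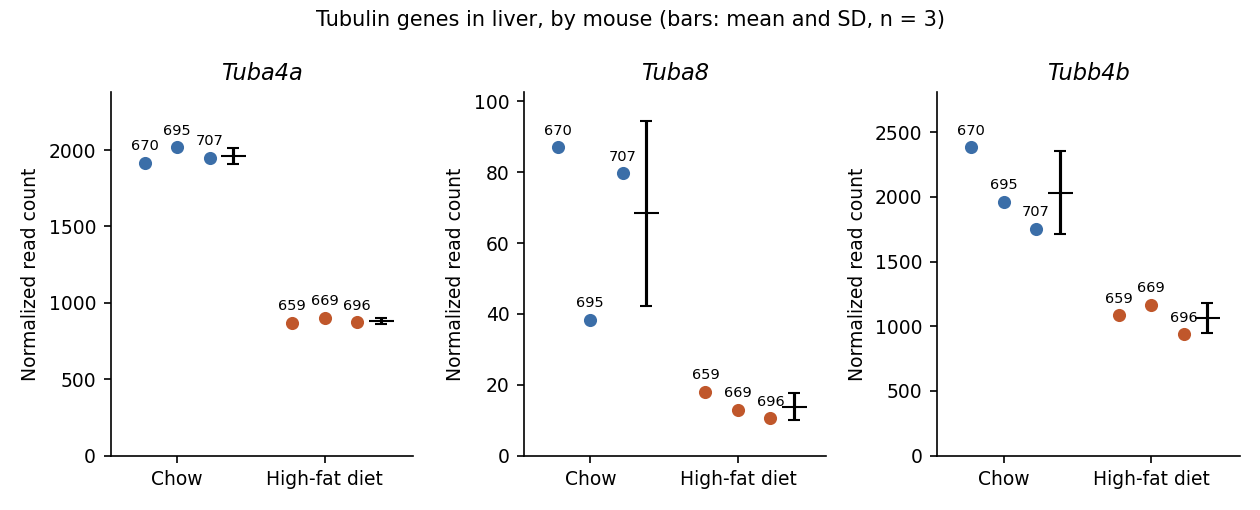
Normalized read counts (y axis, from 0) of Tuba4a, Tuba8 and Tubb4b in each of 3 chow and 3 HFD mice, with mouse numbers above the points and the mean and SD of each group beside them. In each gene all HFD points lie below all chow points; the Tuba4a points of a group almost coincide, and chow mouse 695 stands apart in Tuba8.

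Whether the call holds depended on the test. The authors' test called all 3 tubulin genes, as it called every row of the table, 36.0% of them lower. Other tests were fitted to the listed rows alone. DESeq2, adjusted for the full number of genes, also called all 3, and it called 16.1% of its 336 rows lower. edgeR with TMM scaling, adjusted over the rows, called all 3 as well, with 119 of its 330 rows (36.1%) lower. TMM there centres on rows selected for having changed. This fit called nearly all of the 121 lower rows, so it could hardly have left the members out. edgeR's quasi-likelihood test on the recovered size factors, with adjustment for the full number of genes, called 0 of the 3. It called 0.303% of its 330 rows lower and 2.42% higher. At an unadjusted p under 0.05 this edgeR test passed all 3 tubulin genes, among 119 lower and 211 higher rows. Those are all the rows it was fitted to, so passing that limit says nothing about the members. These fits use the contrast on which the rows were chosen and give no separate support. In a bulk liver sample, fewer cells of a type and less RNA per cell cannot be told apart.

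Levels of different genes are compared per kilobase of exon, using the union of the exons of each gene (3701 bases for Tuba4a, 2263 for Tuba8 and 2088 for Tubb4b). Tubb4b was the most abundant, at 973 ± 153 normalized counts per kb on chow and 509 ± 55.2 on HFD (SD, n = 3 each). Tuba4a followed at 530 ± 13.9 on chow and 239 ± 4.95 on HFD (SD, n = 3 each). Tuba8 was far lower, at 30.2 ± 11.6 on chow and 6.12 ± 1.70 on HFD (SD, n = 3 each). This order held in each of the 6 mice, and no 2 genes overlapped within a group. The order of Tubb4b and Tuba4a depends on the length used, which for Tuba4a joins the exons of 8 transcripts. In reads not divided by length, Tuba4a exceeded Tubb4b in chow mice 695 and 707.

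The ratio of Tubb4b to Tuba4a reads within a mouse does not depend on the size factors. It was 1.24 in chow mouse 670, 0.972 in chow mouse 695 and 0.900 in chow mouse 707. On HFD it was 1.24 in mouse 659, 1.29 in mouse 669 and 1.07 in mouse 696. The ranges of the groups overlap, and chow mouse 670 lies among the HFD mice, with a mean of 1.04 ± 0.181 on chow and 1.20 ± 0.114 on HFD (SD, n = 3 each). Tuba8 reads were 4.54%, 1.90% and 4.09% of Tuba4a reads in chow mice 670, 695 and 707. They were 2.08%, 1.43% and 1.21% in HFD mice 659, 669 and 696. Here the ranges also overlap, through chow mouse 695.

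**Figure D2:**
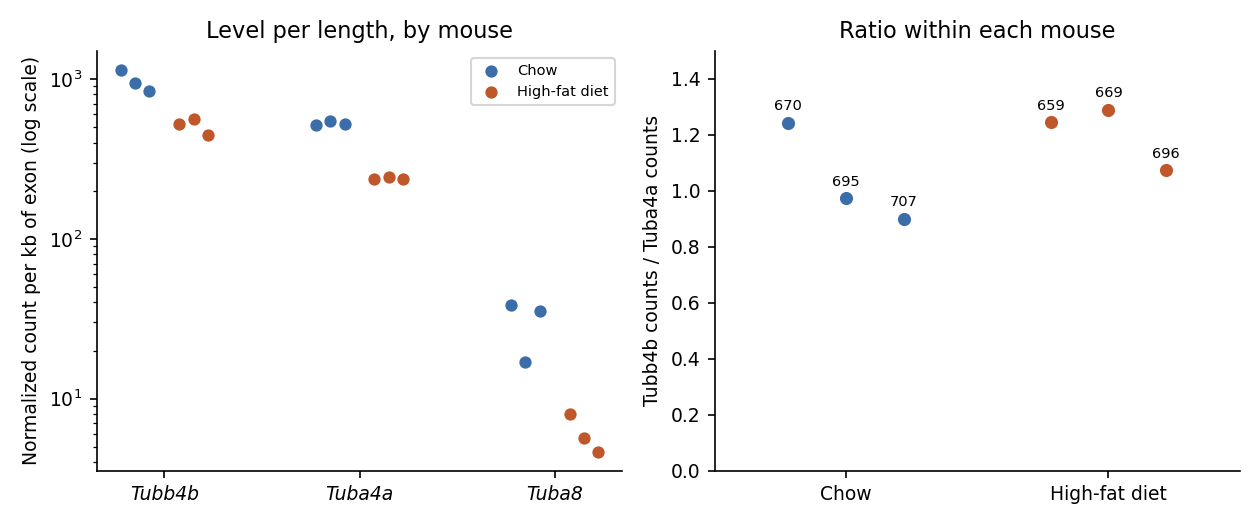
Left, normalized counts per kb of exon (log scale) of the 3 genes in each chow (blue) and HFD (orange) mouse. Right, Tubb4b reads divided by Tuba4a reads in each mouse (y axis from 0), where chow mouse 670 lies at 1.24 among the HFD mice.

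Tuba4a was among the rows that varied least between mice of a group, at rank 7 of 334 rows on chow and rank 5 of 336 on HFD. Its coefficient of variation (CV, the SD as a percentage of the mean) was 2.62% on chow and 2.07% on HFD. The counting error of reads alone would give 2.31% and 3.29%, so the value on HFD lies below the counting error. Over all rows the median CV was 22.1% on chow and 18.0% on HFD. With both groups pooled, Tuba4a had the lowest CV of the table (2.37%), followed by Zbtb18 at 2.87% and Tbc1d2b at 3.82%. Among the 60 rows with a mean count within 2-fold of its own, Tuba4a ranked 2 from the tightest on chow and 1 on HFD. The authors' test favours rows that vary little, so a table of selected rows holds more of them than an unselected one would. A CV from 3 mice is imprecise, so some of the 336 rows may fall below their counting error by sampling alone. The ranks were worked out with the recovered size factors only.

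The spread of Tuba4a depends on the scaling. In raw counts the CV was 13.2% on chow and 8.75% on HFD, so the raw reads of this gene moved with the size factors. Scaled by TMM over the rows, it was 1.30% and 5.64%. Tubb4b varied far more than its counts require, with a CV of 15.7% on chow and 10.9% on HFD against counting errors of 2.26% and 3.00%. For Tuba8 the CV of 27.8% on HFD was close to the counting error of 26.2%, whereas on chow it was 38.3% against 12.5%. In chow mouse 695 Tuba8 deviated by -43.8% from its group mean, Tubb4b by -3.52% and Tuba4a by 2.87%.

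**Figure D3:**
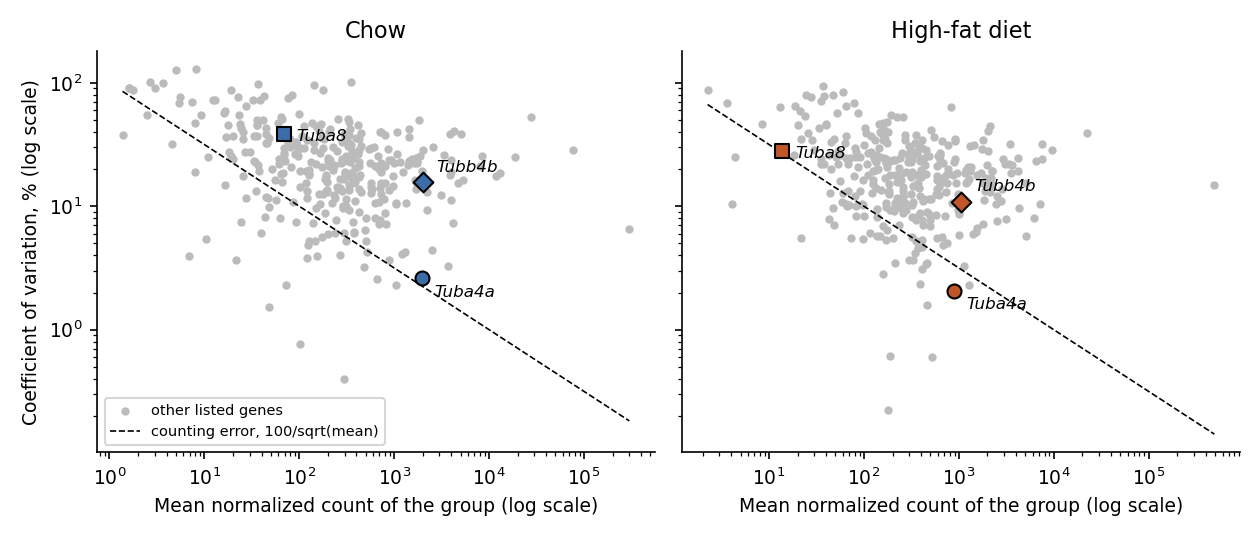
Coefficient of variation between 3 mice (y axis, percent, log scale) against the mean normalized count of the group (x axis, log scale) for the listed genes (grey) and the 3 tubulin genes, on chow (left) and HFD (right). The dashed line is the counting error; Tuba4a lies close to it at 2.62% and 2.07%, and genes with a mean or a variation of 0 in a group are not drawn.

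Each tubulin gene was set beside the rows most like it over the 6 mice. Likeness was the root mean square difference of log2(normalized count + 0.5) after subtracting each gene's mean, over 312 rows. The 6 mice span both diets, so rows with a like diet difference, and a like order of mice within a group, are near by construction. Nearest to Tuba4a were Wrnip1, which encodes an ATPase that binds the Werner helicase (difference 0.148), Gtf2ird1, a transcription regulator gene (0.155), and Zdhhc14, a palmitoyltransferase gene (0.156). The median over rows was 1.03. Nearest to Tubb4b were Depdc7 (0.107), the heat shock factor gene Hsf2 (0.115) and Rhod (0.132), where the median was 0.945. In Depdc7, Hsf2 and Rhod, as in Tubb4b, the chow mice ran 670, 695, 707 from highest to lowest. On HFD the order differed, with mouse 669 highest in Tubb4b and mouse 659 highest in the other genes.

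Nearest to Tuba8 were Ehhadh, the peroxisomal bifunctional enzyme gene (0.243), Cyp4a14, a fatty acid omega-hydroxylase gene (0.31), and Caln1, which encodes a calcium-binding protein (0.419). The median over rows was 1.61. Ehhadh had 44150 normalized counts in chow mouse 670, 15460 in chow mouse 695 and 24090 in chow mouse 707. On HFD it had 8174, 6070 and 5228 in mice 659, 669 and 696. In Ehhadh, Cyp4a14 and Caln1, as in Tuba8, mouse 695 was the lowest chow mouse and mouse 659 the highest HFD mouse, an order that their choice by likeness favours. Among each other, Tuba4a and Tubb4b differed by 0.196, and Tuba8 differed from Tuba4a by 0.696 and from Tubb4b by 0.758.

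**Figure D4:**
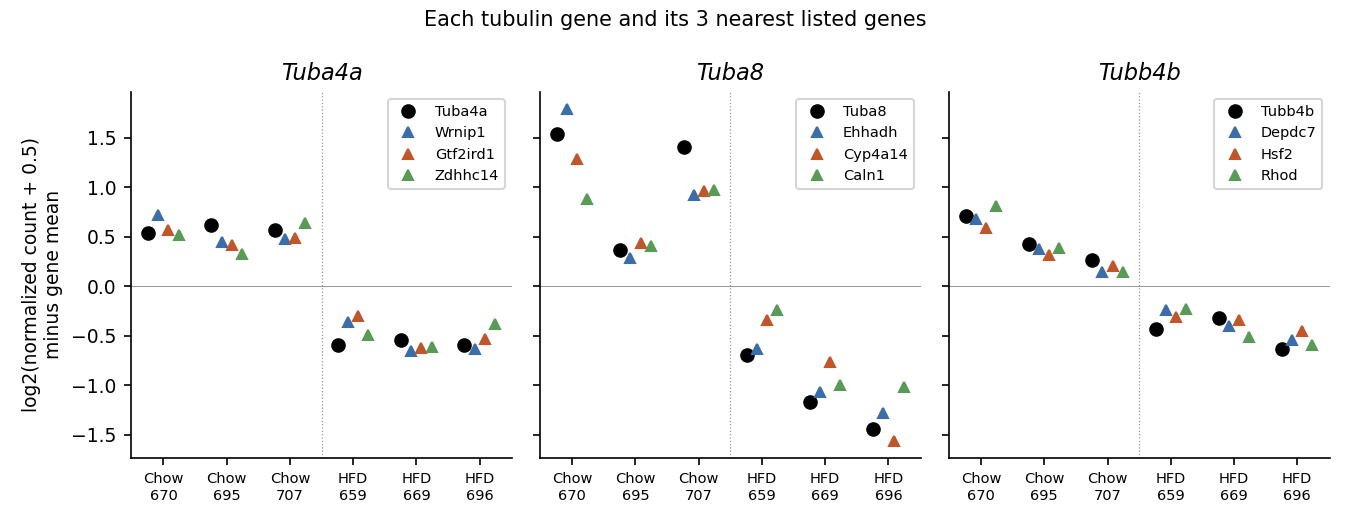
Each tubulin gene (black circles) and its 3 nearest listed genes (triangles) in each mouse, as log2(normalized count + 0.5) minus the gene's mean over the 6 mice. The Tuba4a points are level within a group, while Tuba8, Ehhadh, Cyp4a14 and Caln1 are lower in mouse 695 than in the other chow mice.

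Of 16 alpha- and beta-tubulin genes on the list used, these 3 are rows of the diet table, and all 3 were lower on HFD. The other 13 were not analysed here, so the total tubulin mRNA of these livers is unknown. Over 9 lists of the microtubule system with 302 genes, 4 were rows of the diet table, 3 lower and 1 higher. The lists cover tubulins, nucleation, folding, tubulin-modifying enzymes, microtubule-binding proteins, severing, kinesins, dyneins and cilia. Their median log2 ratio was -1.04, beside 0.889 over all rows, and the tubulin genes set that value. Besides the tubulins the only row was Fbf1, which encodes a protein of the centriole's distal appendages at the base of cilia. Fbf1 had 106.5, 193.9 and 125.5 normalized counts in chow mice 670, 695 and 707. On HFD it had 720, 545 and 1019 in mice 659, 669 and 696, 5.36-fold higher in the mean. Rows higher on HFD make up 0.860% of the genes tested and 64.0% of the rows, and rows lower on HFD make up 0.484% and 36.0%.

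The actin and the filament lists gave 1 row each, and both rows were higher on HFD. Of 48 actin cytoskeleton genes the row was Pls1, which encodes the actin-bundling protein plastin 1. Pls1 rose from 2.49 ± 1.36 to 27.6 ± 21.1 normalized counts (SD, n = 3 each), with 51.5 in HFD mouse 659 against 11.8 in mouse 669 and 19.4 in mouse 696. Of 33 intermediate filament and septin genes the row was Vim, which encodes vimentin, a filament protein of mesenchymal cells. Vim had 262, 208 and 218 normalized counts in the chow mice 670, 695 and 707. On HFD it had 416, 398 and 308 in mice 659, 669 and 696. In the authors' deposited table the adjusted p is 0.00662 for Pls1 and 0.03403 for Vim.

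Of 10 lists of cell type and proliferation markers, 4 had rows in the diet table, and those rows were higher on HFD, as were 64.0% of all rows. Of 17 stellate cell and fibroblast markers 6 were rows, all higher, and their summed level ran from 1300 to 1480 on chow and from 2868 to 4790 on HFD. Of 15 macrophage markers 2 were rows, Itgax and Mmp12, with sums of 12.5 to 25.3 on chow and 71.2 to 119.3 on HFD. Of 15 lymphocyte markers the 1 row was Themis and of 8 adipocyte markers the 1 row was Plin4, both higher on HFD. The defining markers Acta2, Adgre1, Cd3e and Adipoq are no rows and were not analysed here. The lists of hepatocyte (17 genes), endothelial (11), cholangiocyte (9), platelet (10), muscle (11) and proliferation markers (14) had 0 rows in the diet table, so the labelled tissue could not be checked with them. The part of these cell types in the tubulin difference was not tested.

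The stretches upstream of the 3 genes are shown because the genes were lower together. Each is 120 bases long, from the RefSeq promoter sequences of GRCm38.p6, and ends before the annotated exon that holds the start. The RefSeq start of Tuba4a lies 571 bases inside the GENCODE gene. The stretch of Tuba4a is chr1:75219295-75219414 on the minus strand, that of Tuba8 chr6:121210576-121210695 on the plus strand and that of Tubb4b chr2:25224703-25224822 on the minus strand. Capitals mark a GC box (GGGCGG or CCGCCC) in Tuba4a and a CCAAT box (CCAAT) in Tubb4b.
Tuba4a: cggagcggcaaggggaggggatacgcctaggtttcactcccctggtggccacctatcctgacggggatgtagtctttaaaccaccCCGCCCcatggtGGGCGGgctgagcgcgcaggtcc
Tuba8: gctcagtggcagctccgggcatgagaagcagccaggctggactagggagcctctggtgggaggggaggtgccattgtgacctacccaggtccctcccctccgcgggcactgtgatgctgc
Tubb4b: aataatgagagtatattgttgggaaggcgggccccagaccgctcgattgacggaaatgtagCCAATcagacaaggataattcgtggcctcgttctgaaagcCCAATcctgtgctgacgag

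Motifs were searched on both strands over 300 bases, 250 before and 50 after the RefSeq start. The set of 5 motifs was chosen after these sequences had been seen. Tubb4b held 5 CCAAT boxes, all on the strand shown, at -221, -188, -122, -59 and -19. Of 27025 mouse promoters, 37.9% held at least 1 CCAAT box and 0.285% held at least 5. Tuba4a and Tuba8 held 0. GC boxes numbered 2 in Tuba4a, 2 in Tubb4b and 0 in Tuba8, and 19.6% of promoters held at least 2. A TATA box (TATAA) lay at 12 in Tuba4a and at 19 in Tubb4b, both downstream of the annotated start, and 25.5% of promoters held at least 1. Tuba8 held 1 E-box (CACGTG) at -207, and 7.24% of promoters held at least 1. DR1, a direct repeat of the nuclear receptor half-site AGGTCA with 1 base between, was in 0 of the 3 windows and in 0.0444% of promoters. No motif searched was shared by all 3 windows.

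Several features bear on how far these counts belong to the named gene. On the opposite strand, Stk16 overlaps 1379 exon bases of Tuba4a, Gm15856 overlaps 368 exon bases of Tuba8 and Fam166a overlaps 121 exon bases of Tubb4b. Whether counting used strand is not given in the sources used here, and without strand the reads of overlapping genes cannot be told apart. Of the 50-base windows of the Tubb4b transcript, 50.9% also occur in transcripts of other loci, among them the pseudogenes Tubb4b-ps1 and Tubb4b-ps2, and of 100-base windows 29.2% do. For Tuba4a the shares were 1.11% and 0, and for Tuba8 0.181% and 0. With the overlapping Stk16 included, 48.8% of the 50-base windows of Tuba4a are shared. All 3 levels are uncertain to that extent. Of the genes that overlap a member or lie next to it (Glb1l, A630095N17Rik, Pex26, Usp18, Stpg3 and Slc34a3), 0 are rows of the table.

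Of the 33 rows for PCN against vehicle, 0 are tubulin genes. Those rows are also a selection, with adjusted p values up to 0.09547. The number of genes tested for PCN was not worked out, so the share of genes that the 33 rows make up is not given. With so few rows, neither the absence of tubulin genes nor a single row from the microtubule lists says much. The tubulin counts of the injected mice were not analysed here. The 1 row from the microtubule lists was Ccdc151, which encodes a protein needed to dock the dynein arms of motile cilia. Ccdc151 had 16.3, 26.1 and 28.6 normalized counts in vehicle mice 682, 697 and 705, and 73.2, 64.1 and 60.2 in PCN mice 688, 698 and 706. Its ratio of group means, PCN over vehicle, was 2.78. The authors' deposited table lists for it a log2 change of 0.78 and an adjusted p of 0.02601. As for Tuba8, the ratio of means and the deposited change are unlike measures.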

How the data were processed

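Livers of 12 mice were sequenced, 3 in each of 4 groups taken from the labels. HISAT2, HTSeq, DESeq2 and the build GRCm38 (mm10) are named in the submitters' processing notes; their versions, settings and use of strand: not given in the sources used here. Per the file headers, the authors deposited each mouse's raw counts together with a mean, a log2 change and its standard error, a test statistic (a score), and p-values before and after adjustment. Size factors were found by solving the authors' mean column (largest gap 0.00509 counts). The number of genes tested for the diet was worked out from p and adjusted p. Calls are the authors' own. As alternatives, edgeR 4.0.16 was fitted to the 330 rows left by its filter on low counts and DESeq2 1.42.0 to all 336 (R 4.3.3, limma 3.58.1). After these fits edgeR was also run on simulated counts with known changes, whose means and dispersion were taken from the same counts. That run adjusted over the listed rows and not over the full number of genes. It is thus no check on the calls adjusted for all genes, and its result is not reported here. Python was 3.11.15, numpy 2.4.6, pandas 2.3.3, Biopython 1.88 and matplotlib 3.10.9. SDs are over the 3 mice of a group.

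The members and lists were chosen with earlier results of these data known. Named genes were the members, every row on the cytoskeletal lists, and the 3 rows nearest to each member (pseudocount 0.5, leaving out predicted genes and means under 10). Marker rows and the rows of lowest spread were named after their values were seen. Alternatives were TMM, no scaling, medians, other tests, no filter, a stricter threshold and leaving out each mouse. Each mouse is a separate animal. The coding end of 1 comparison gene is not reported here.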

Additional observations from a re-analysis of the deposited data

How the results depend on the processing

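The direction of the 3 tubulin genes was lower on HFD under every scaling and without each mouse in turn. In each gene all HFD mice lay below all chow mice, so leaving out a mouse could not change the direction. On the log2 scale the ratio of group means was -1.15 for Tuba4a, -2.30 for Tuba8 and -0.94 for Tubb4b. With TMM over the rows, which centres on genes selected for having changed, it was -1.79, -2.96 and -1.58. With no scaling Tuba4a was at -1.02. Leaving out each mouse gave -1.17 to -1.13 for Tuba4a, -2.59 to -2.09 for Tuba8 and -1.03 to -0.81 for Tubb4b. The CV of Tuba4a was 1.30% (chow) and 5.64% (HFD) with TMM and 13.2% and 8.75% with no scaling, and that of Tubb4b was 25.0% and 6.50% with no scaling. Of the diet calls (215 higher and 121 lower by the authors), edgeR with the recovered size factors gave 8 and 1, with or without a filter on low counts, edgeR with TMM 66 and 119, and DESeq2 105 and 54. Without each mouse in turn edgeR gave 1 to 7 higher and 0 to 2 lower. Of the cytoskeletal rows (3 higher, 3 lower) edgeR with the recovered size factors kept 1 higher, Fbf1, and 0 lower, while DESeq2 called the 3 tubulin genes lower. At an unadjusted p under 0.05 that edgeR fit passed the 3 tubulin genes, as it did every row it was fitted to. The cause of the gaps between tests was not tested. No paired analysis was possible because the mouse numbers are not shared between groups. Depth limits Tuba8 most, at 12 to 20 reads per HFD mouse.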
